A study of Mus musculus with 6 samples.

Results

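The genes described here are 10 mouse genes of the ATF4 pathway and the unfolded protein response: Atf4, Ddit3, Asns, Chac1, Sesn2, Trib3, Herpud1, Xbp1, Hspa5 and Hsp90b1. They were found on the array by the RefSeq accession printed for each probe, and all 10 were present, out of 20284 genes matched in this way. Their 11 probes (Atf4 has 2, the others 1 each) gave signals well above background on all 6 arrays, so every one of the 10 was among the 13247 genes tested. The genes were chosen by name, and Atf4 is represented by its probe with the higher mean signal, with the other given beside it.

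The unfolded protein response begins when unfolded proteins gather in the endoplasmic reticulum (ER). The kinase PERK phosphorylates the translation factor eIF2 alpha, which slows most translation but favours that of the ATF4 message. The nuclease IRE1 splices Xbp1 mRNA into the form that encodes the active factor, and ATF6 is released from the membrane by proteases to act on chaperone genes. Other kinases reach ATF4 through the same step: GCN2 in amino acid shortage, PKR in response to double-stranded RNA and HRI in haem deficiency. In blood cells the response is best known from secretory cells such as plasma cells, where XBP1 is needed. An array reads the amount of mRNA, not the translation of Atf4.

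RNA came from Tot2 cells, a line of myeloid progenitors established from a mouse without Irf8, a background that all groups share. The cells received a retrovirus carrying no insert (MSCV-puro, control), FLAG-tagged IRF8 (MSCV-IRF8FLAG) or FLAG-tagged KLF4 (MSCV-KLF4FLAG), both transcription factors of monocyte development. All groups were grown with 20% fetal bovine serum and 5 ng/ml granulocyte-macrophage colony-stimulating factor, selected with 2 µg/ml puromycin from 48 hr and taken for RNA on day 4. There are 2 arrays a group, numbered 1 and 2 for experiments that the series' design describes as independent. The retroviral vector drives both factors from outside their own loci, and a single cell line stands for the progenitor.

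Intensity at the 75th percentile of an array was 436 to 974, and 47.1% to 56.8% of probes were well above background on an array. Irf8 read 0.49 and 0.64 on control arrays, 2.94 and 3.05 on IRF8-labelled arrays and 2.18 and 2.16 on KLF4-labelled arrays (log2 signal minus the array's 75th percentile, the scale used throughout). Klf4 read -1.62 and -1.28 on control arrays, 4.46 and 4.61 on IRF8-labelled arrays and -1.56 and -1.33 on KLF4-labelled arrays. Klf4 signal was therefore not above control on the arrays labelled KLF4; where on the transcripts the probes lie is not known here, the groups are named by their labels, and every direction rests on them. The summed signal of 6 monocyte and macrophage markers was 3.50 to 3.52 on control, 8.93 to 8.96 on IRF8-labelled and 6.40 to 6.46 on KLF4-labelled arrays (log2). That of 6 neutrophil markers was 10.01 to 10.45, 8.31 to 8.69 and 9.41 to 10.03, and that of 6 progenitor markers 7.04 to 7.12, 4.46 to 4.52 and 6.54 to 6.59. The 6 progenitor markers did not all move 1 way. Myb, Spn and Prom1 were well above background on both arrays of every group, and Cd34 and Flt3 only on both IRF8-labelled arrays. Of the 5 tested, limma called 3 lower and 1 higher in IRF8-labelled cells against control, and 3 lower and 2 higher against KLF4-labelled cells. Kit, a defining progenitor receptor, was not well above background on any array. Of 4 plasma cell markers, 0 were well above background on both control arrays, 2 (Prdm1 and Irf4) on both IRF8-labelled arrays and 2 (Sdc1 and Irf4) on both KLF4-labelled arrays, while Jchain was not on any array. Their summed signal was -3.67 to -3.55, -2.09 to -1.69 and -2.74 to -2.69 in the same order of groups, and against control limma called 2 of the 3 tested higher in IRF8-labelled and 1 in KLF4-labelled cells. Of 7 fibroblast and packaging cell markers, 2, 2 and 3 were above background on both arrays of the control, IRF8-labelled and KLF4-labelled groups, and their summed signal was -2.03 to -1.81, -2.38 to -1.92 and 1.11 to 1.17, highest on the KLF4-labelled arrays. That of 4 erythroid markers was 1.03 to 1.17, -0.997 to -0.941 and 0.66 to 0.82, and that of 5 lymphocyte markers -0.01 to 0.25, 0.70 to 1.34 and -0.26 to 0.63. These markers moved with the groups, and their part in the differences below was not tested. In bulk RNA, fewer cells of a type and less RNA per cell cannot be told apart.

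Promoter sequence is shown for 5 of the 10 genes because each holds an exact match to an element through which these pathways are known to act. The sequences come from RefSeq on GRCm38.p6, in which all 10 genes had a promoter, and each run is the 250 bases before the annotated start, written 5′ to 3′ on the gene's own strand. Capitals mark the matches. Hspa5 (chr2:34771840-34772089, plus strand) and Hsp90b1 (chr10:86705445-86705694, minus strand) hold the ER stress response element, which reads CCAAT, 9 free bases and CCACG and is bound by ATF6 with NF-Y. Herpud1 (chr8:94386179-94386428, plus strand) holds the ER stress response element II, ATTGG with 1 free base before CCACG, and also a C/EBP-ATF response element. Asns (chr6:7693210-7693459, minus strand) and Chac1 (chr2:119350992-119351241, plus strand) hold the C/EBP-ATF response element, TGATGNAA, a type of site bound by ATF4 with C/EBP partners.
Hspa5: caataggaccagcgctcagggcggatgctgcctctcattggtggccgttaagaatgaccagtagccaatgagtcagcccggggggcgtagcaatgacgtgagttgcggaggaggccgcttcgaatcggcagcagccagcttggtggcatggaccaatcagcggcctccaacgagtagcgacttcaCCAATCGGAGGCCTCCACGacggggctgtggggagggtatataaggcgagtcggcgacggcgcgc
Hsp90b1: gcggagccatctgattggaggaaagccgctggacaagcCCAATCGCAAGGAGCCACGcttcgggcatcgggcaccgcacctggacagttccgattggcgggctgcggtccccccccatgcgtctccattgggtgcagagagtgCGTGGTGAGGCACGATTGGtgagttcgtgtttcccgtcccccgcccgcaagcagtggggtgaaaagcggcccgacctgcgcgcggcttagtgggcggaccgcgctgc
Herpud1: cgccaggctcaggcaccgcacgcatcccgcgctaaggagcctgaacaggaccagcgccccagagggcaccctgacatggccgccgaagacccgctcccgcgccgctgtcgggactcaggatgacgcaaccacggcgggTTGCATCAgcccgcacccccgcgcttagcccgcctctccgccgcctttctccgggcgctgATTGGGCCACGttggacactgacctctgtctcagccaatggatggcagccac
Asns: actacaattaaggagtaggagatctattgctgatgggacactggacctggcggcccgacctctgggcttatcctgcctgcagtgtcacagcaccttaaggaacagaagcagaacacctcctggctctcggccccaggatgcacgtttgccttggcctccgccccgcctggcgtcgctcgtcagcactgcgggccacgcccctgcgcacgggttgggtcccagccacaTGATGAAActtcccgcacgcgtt
Chac1: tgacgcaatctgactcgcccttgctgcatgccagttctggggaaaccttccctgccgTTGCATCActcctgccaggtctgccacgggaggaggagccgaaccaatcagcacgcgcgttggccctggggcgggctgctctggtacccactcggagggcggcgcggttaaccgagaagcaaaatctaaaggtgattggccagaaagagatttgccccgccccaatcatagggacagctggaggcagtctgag

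Both strands of a window of 300 bases, 250 before and 50 after the start, were searched. The ER stress response element was found in 39 of 32851 promoters (0.119%), among them Hspa5, where it begins 65 bases before the start, and Hsp90b1, which has 1 copy beginning 212 bases before the start and another, on the opposite strand, nearer to it. Of the promoters of 20 ER chaperone and folding enzyme genes, 6 held it. Element II was found in 12 promoters (0.0365%), with Herpud1 the only one of the 10 genes, 52 bases before its start. The C/EBP-ATF response element was found in 1304 promoters (3.97%) and in 4 of the 10 genes: Asns (23 bases before the start), Herpud1 (112), Chac1 (193) and Trib3, where it lies 15 bases after the start and so outside the runs above. CCACG by itself, which also lies within both ER stress response elements, was in 32.8% of all promoters and 7 of the 10, and the unfolded protein response element TGACGTGG in 0.676% of all and in 0 of the 10. Ddit3 and Xbp1 held none of the 5 motifs in this window, which says nothing of sites elsewhere.

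Against control, IRF8-labelled cells had lower signals of Atf4 itself, of the amino acid response genes Asns and Chac1 and of the ER genes Hspa5, Hsp90b1 and Xbp1, and higher signals of Ddit3 and Sesn2. By limma with Benjamini-Hochberg adjustment over all genes tested, 2 of the 10 rose and 6 fell at an adjusted p below 0.05. The same fit called 25.8% of all genes higher and 35.7% lower (61.5% in either direction), so a call by itself was common in this comparison. Their median difference was -0.49 log2 units, against -0.13 over all genes tested. In KLF4-labelled cells 0 of the 10 rose and 5 fell (Ddit3, Asns, Sesn2, Herpud1 and Hsp90b1), where 10.4% of all genes were called higher and 8.86% lower (19.2% in either direction). The median difference was -0.40, against -0.16 over all genes. Leaving out any 1 control or KLF4-labelled array left none of these 5 calls. IRF8-labelled cells set directly against KLF4-labelled cells had 3 genes higher (Ddit3, Sesn2, Herpud1) and 2 lower (Asns, Chac1), where 23.7% of all genes were higher and 26.8% lower (50.5% in either direction), with a median of -0.19 against -0.01. The comparisons with control share its 2 arrays and are not independent of each other.

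**Figure D1:**
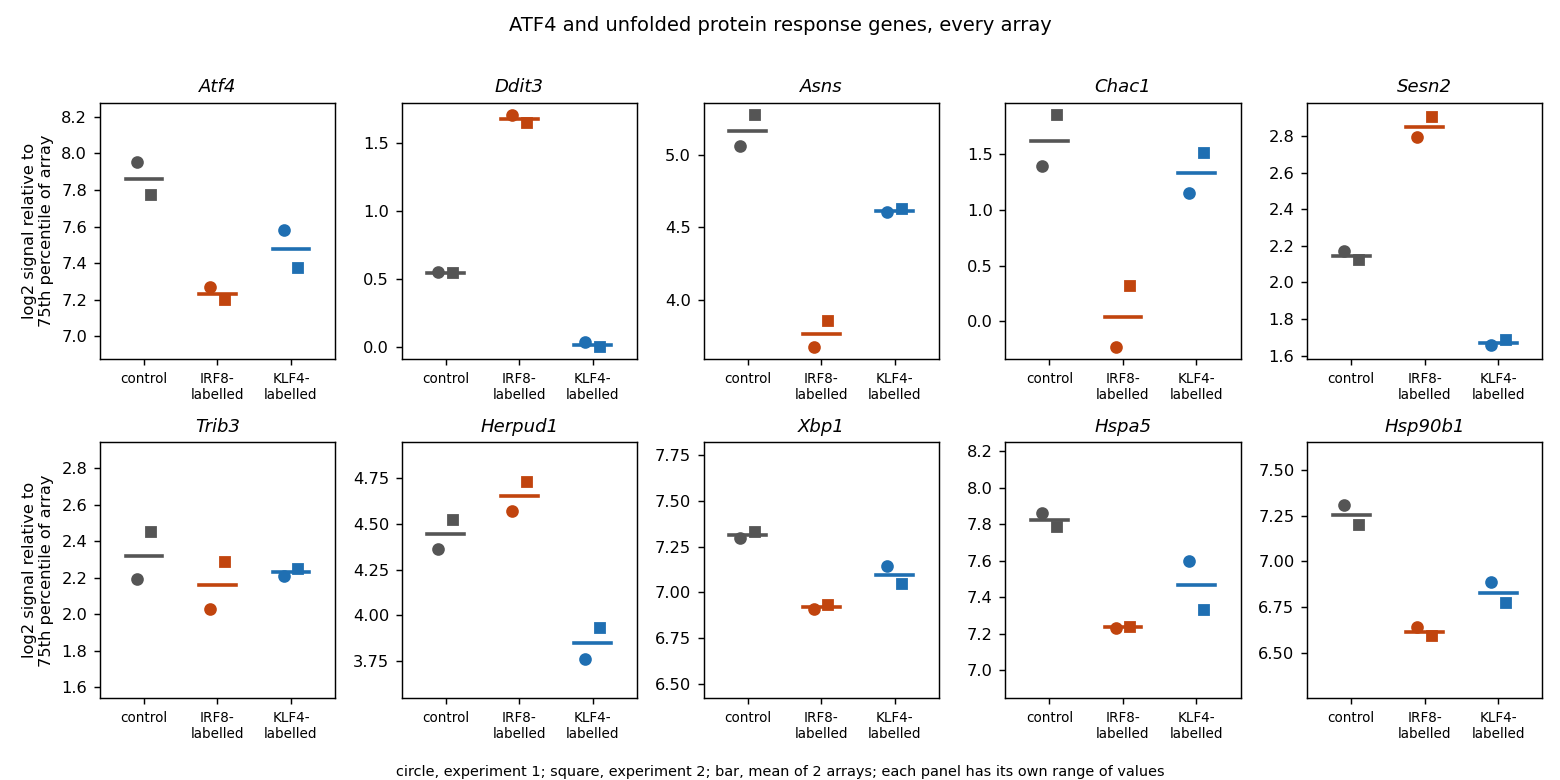
Log2 signal relative to each array's 75th percentile (vertical axis, each panel with its own range) in control, IRF8-labelled and KLF4-labelled cells, with circles for experiment 1, squares for experiment 2 and bars for group means. Ddit3 and Sesn2 are highest on the IRF8-labelled and lowest on the KLF4-labelled arrays, while Asns and Chac1 are lowest on the IRF8-labelled arrays.

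Atf4 encodes the transcription factor on which the eIF2 alpha kinases converge. Its brighter probe (A_55_P1979728) read 7.95 and 7.77 on control arrays, 7.27 and 7.20 on IRF8-labelled arrays and 7.58 and 7.37 on KLF4-labelled arrays. The 3 groups did not overlap, with control highest and IRF8-labelled lowest. Atf4 fell 1.54-fold in IRF8-labelled cells (log2 -0.63 ± 0.12 (SE), 2 arrays against 2, limma adjusted p = 0.00714). In KLF4-labelled cells the difference from control was -0.39 ± 0.12 (SE) with limma adjusted p = 0.0800, and 0.0154 when the experiment was a block. The 2 transduced groups, neighbours in the order, differed by -0.24 (95% interval -0.54 to 0.06, limma adjusted p = 0.150, or 0.0279 with the block). The dimmer probe (A_51_P464238) read 3.43 and 3.34, then 2.62 and 2.51, then 2.85 and 2.91, in the same order of groups. Its differences were -0.82 (limma adjusted p = 0.00118), -0.50 (0.0257) and -0.31 (0.0404), so both probes put the groups in 1 order and the dimmer one passed in all 3 comparisons.

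Ddit3, which encodes CHOP, a C/EBP-like factor induced downstream of ATF4 and linked to cell death under lasting stress, went the other way from Atf4 in IRF8-labelled cells. It read 0.55 and 0.54 on control arrays, 1.70 and 1.64 on IRF8-labelled arrays and 0.04 and -0.00 on KLF4-labelled arrays. The arrays of a group lay close together and the groups far apart, IRF8-labelled highest and KLF4-labelled lowest. Ddit3 rose 2.18-fold in IRF8-labelled cells (log2 1.13 ± 0.08 (SE), limma adjusted p = 0.000272) and fell 1.44-fold in KLF4-labelled cells (log2 -0.53 ± 0.08 (SE), limma adjusted p = 0.0143). Between the transduced groups the difference was 3.15-fold (log2 1.66 ± 0.08 (SE), limma adjusted p = 0.000210), and it was 1.67 in experiment 1 and 1.64 in experiment 2. The differences of IRF8-labelled cells from control and from KLF4-labelled cells passed under all 19 alternative analyses.

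Among the targets of ATF4, Asns, the enzyme that makes asparagine, was abundant on all arrays. It read 5.06 and 5.28 on control arrays, 3.67 and 3.85 on IRF8-labelled arrays and 4.61 and 4.62 on KLF4-labelled arrays. Again no groups overlapped, and the order was control, KLF4-labelled, IRF8-labelled. Asns fell 2.65-fold in IRF8-labelled cells (log2 -1.41 ± 0.12 (SE), limma adjusted p = 0.000451) and 1.47-fold in KLF4-labelled cells (log2 -0.55 ± 0.12 (SE), limma adjusted p = 0.0361). IRF8-labelled cells were 1.81-fold below KLF4-labelled cells (log2 -0.85 ± 0.12 (SE), limma adjusted p = 0.00359).

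Chac1, an enzyme that breaks down glutathione, varied more between experiments than any other of the 10 genes. It read 1.39 and 1.85 on control arrays, -0.23 and 0.32 on IRF8-labelled arrays and 1.16 and 1.51 on KLF4-labelled arrays, higher in experiment 2 in every group. The KLF4-labelled and control arrays overlapped, and the IRF8-labelled arrays lay below both. Chac1 fell 2.99-fold in IRF8-labelled cells (log2 -1.58 ± 0.26 (SE), limma adjusted p = 0.00467), by 1.62 in experiment 1 and 1.54 in experiment 2. The KLF4-labelled cells differed from control by -0.29 (95% interval -0.97 to 0.39, limma adjusted p = 0.458, or 0.0340 with the block). IRF8-labelled cells were 2.45-fold below KLF4-labelled cells (log2 -1.29 ± 0.26 (SE), limma adjusted p = 0.0127), a call that was lost without KLF4 replicate 2 (limma adjusted p = 0.0685).

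Sesn2 encodes sestrin 2, a leucine-binding inhibitor of mTORC1 signalling that is induced by ATF4 and by p53. It read 2.17 and 2.12 on control arrays, 2.80 and 2.90 on IRF8-labelled arrays and 1.66 and 1.68 on KLF4-labelled arrays. The order of groups was that of Ddit3, with no overlap. Sesn2 rose 1.63-fold in IRF8-labelled cells (log2 0.70 ± 0.09 (SE), limma adjusted p = 0.00155), fell 1.39-fold in KLF4-labelled cells (log2 -0.47 ± 0.09 (SE), limma adjusted p = 0.0237) and was 2.26-fold higher in the former than in the latter (log2 1.18 ± 0.09 (SE), limma adjusted p = 0.000563).

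Trib3, a pseudokinase induced by ATF4 and CHOP, had overlapping signals in all 3 groups. It read 2.19 and 2.45 on control arrays, 2.03 and 2.29 on IRF8-labelled arrays and 2.21 and 2.25 on KLF4-labelled arrays. The differences were -0.16 (95% interval -0.52 to 0.19), -0.09 (-0.45 to 0.26) and -0.07 (-0.43 to 0.29) in the 3 comparisons, with limma adjusted p of 0.354, 0.645 and 0.704. Differences within these intervals were not detectable with 2 arrays a group.

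**Figure D2:**
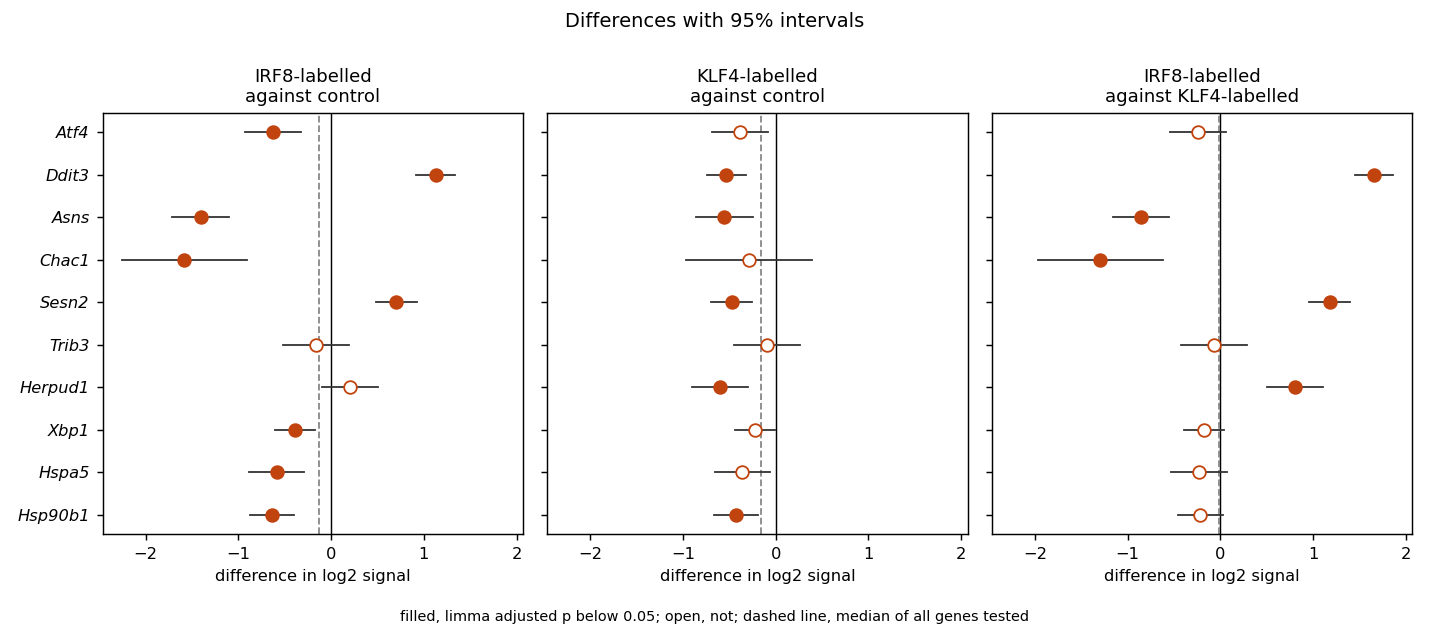
Difference in log2 signal (horizontal axis) of the 10 genes in the 3 comparisons, with 95% intervals from limma, filled where the adjusted p is below 0.05, and the median of all genes tested as a dashed line. In the direct comparison Ddit3, Sesn2 and Herpud1 lie to the right of 0 and Asns and Chac1 to the left, while the other 5 have intervals that include 0.

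The ER branch of the response is represented by Xbp1, the substrate of IRE1, and by 3 of its downstream genes. Xbp1 read 7.30 and 7.33 on control arrays, 6.91 and 6.93 on IRF8-labelled arrays and 7.15 and 7.04 on KLF4-labelled arrays, and the groups did not overlap. It fell 1.31-fold in IRF8-labelled cells (log2 -0.39 ± 0.08 (SE), limma adjusted p = 0.0113), the smallest of the 8 changes called in that comparison. That call was lost without control replicate 2 (limma adjusted p = 0.0541), IRF8 replicate 1 (0.0673) or IRF8 replicate 2 (0.0559), with quantile normalization (log2 -0.27, 0.137) and with spike-in scaling (-0.46, 0.327). In KLF4-labelled cells the difference from control was -0.22 (limma adjusted p = 0.128, or 0.0470 with the block), and between the transduced groups it was -0.17 (0.149). The probe reports total Xbp1 signal, and splicing of the message was not measured.

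Hspa5 encodes BiP, the main Hsp70 of the ER lumen, which also holds the stress sensors inactive. It read 7.86 and 7.78 on control arrays, 7.23 and 7.24 on IRF8-labelled arrays and 7.60 and 7.33 on KLF4-labelled arrays. All KLF4-labelled values lay between those of the other groups, and the 2 differed from each other more than the arrays of either other group did. Hspa5 fell 1.50-fold in IRF8-labelled cells (log2 -0.59 ± 0.12 (SE), limma adjusted p = 0.00869). Its difference from control in KLF4-labelled cells was -0.36 ± 0.12 (SE) with limma adjusted p = 0.0918 (0.0367 with the block), and between the transduced groups it was -0.23 (95% interval -0.53 to 0.07, limma adjusted p = 0.165).

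Hsp90b1, which encodes GRP94, the Hsp90 of the ER, carries the ER stress response element in its promoter as Hspa5 does. It read 7.31 and 7.20 on control arrays, 6.64 and 6.59 on IRF8-labelled arrays and 6.88 and 6.77 on KLF4-labelled arrays, without overlap and in the order found for Hspa5. Hsp90b1 fell 1.56-fold in IRF8-labelled cells (log2 -0.64 ± 0.09 (SE), limma adjusted p = 0.00284) and 1.34-fold in KLF4-labelled cells (log2 -0.42 ± 0.09 (SE), limma adjusted p = 0.0377). The transduced groups differed by -0.21 (limma adjusted p = 0.115, or 0.0232 with the block).

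Herpud1, a membrane protein of the machinery that degrades misfolded ER proteins, did not share the order of the chaperones. It read 4.36 and 4.52 on control arrays, 4.57 and 4.73 on IRF8-labelled arrays and 3.76 and 3.93 on KLF4-labelled arrays. The KLF4-labelled arrays lay below the other 4, and the IRF8-labelled arrays just above control. Herpud1 fell 1.51-fold in KLF4-labelled cells (log2 -0.60 ± 0.12 (SE), limma adjusted p = 0.0297). IRF8-labelled cells were 1.75-fold above KLF4-labelled cells (log2 0.80 ± 0.12 (SE), limma adjusted p = 0.00424, but 0.207 with spike-in scaling). Against control, the IRF8-labelled cells differed by 0.21 (95% interval -0.09 to 0.51, limma adjusted p = 0.183, or 0.0169 with the block).

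The calls against control in KLF4-labelled cells rested on the choice of analysis more than the others did. With the experiment as a block 9 of the 10 genes fell, all but Trib3, where 50.9% of all genes were called in either direction; the block called 75.1% of genes for IRF8-labelled against control and 67.3% for IRF8-labelled against KLF4-labelled cells. With median or spike-in scaling, normexp background correction or no filter on dim probes, limma called 0 of the 10. Of them 3, 0, 7 and 6 had an unadjusted limma p below 0.05, all lower. In these settings the median of all genes also lay below 0 (-0.04, -0.07, -0.17 and -0.23). The share of all genes with such an unadjusted p is not given, here or for the counts that follow. Such counts therefore show nothing particular to the 10 genes. Leaving out either control array or either KLF4-labelled array also left 0 called (5 to 7 with an unadjusted p below 0.05), and leaving out either IRF8-labelled array left 1, Ddit3. Every one of the 10 differences except that of Trib3 kept its negative sign under all 19 alternatives. For IRF8-labelled cells against control, spike-in scaling left 3 of the 8 calls, Ddit3 higher and Asns and Chac1 lower. Under that scaling 16.2% of all genes were called higher and 20.6% lower.

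**Figure D3:**
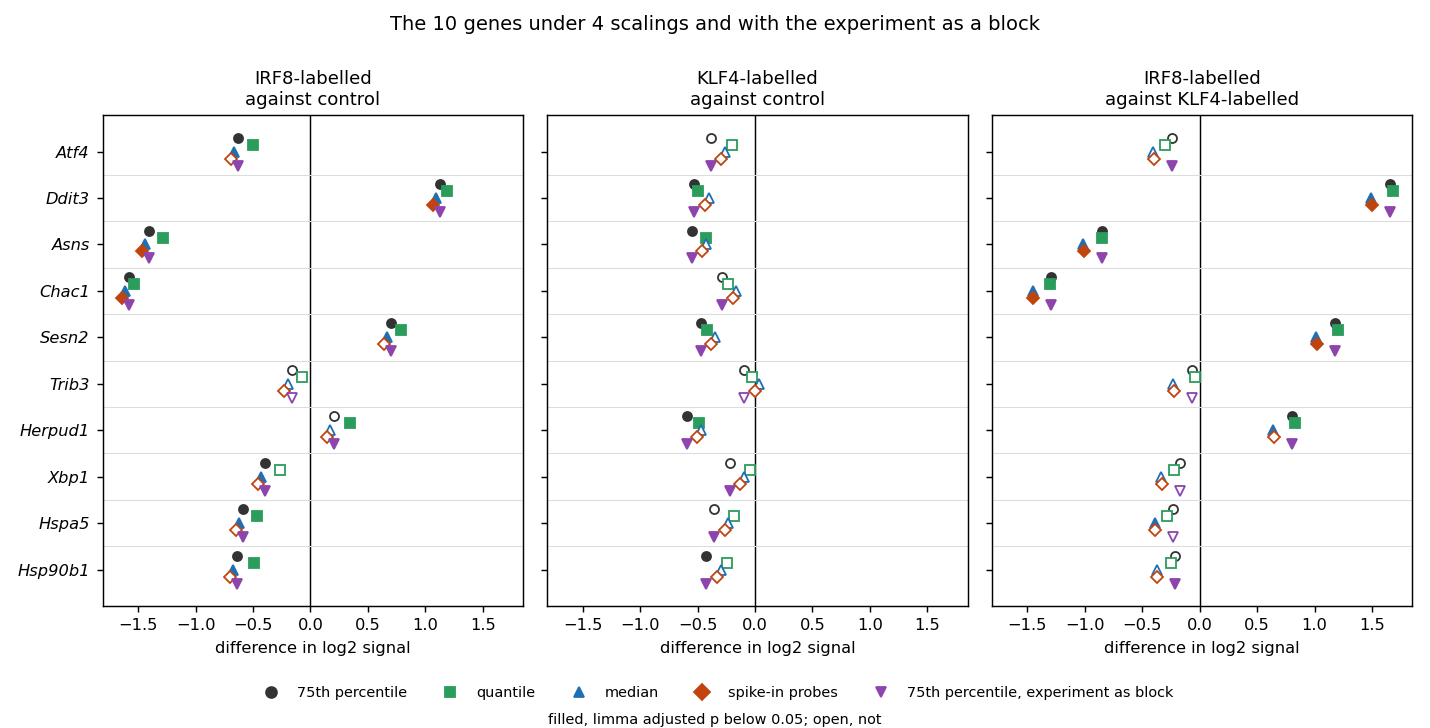
Difference in log2 signal (horizontal axis) of each gene in the 3 comparisons under 4 scalings between arrays and with the experiment as a block, filled where the limma adjusted p is below 0.05. Ddit3, Asns and Chac1 are filled under each for IRF8-labelled against control, whereas for KLF4-labelled against control the median and spike-in symbols are open for all 10 genes.

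The sensors and regulators of the response were read from a list of 17 genes, of which 16 were tested. The missing one is Eif2ak3, which encodes PERK, because its only probe had a value on 5 of the 6 arrays. In IRF8-labelled cells 5 of the 16 rose (31.3%) and 7 fell (43.8%) against control (median -0.29), shares near the 25.8% and 35.7% of all genes. With spike-in scaling 2 rose and 3 fell (16.2% and 20.6% of all genes): Ppp1r15a, Cebpb, Eif2s1, Ern1, Atf6, Eif2ak2 and Mbtps2 were no longer called (limma adjusted p from 0.0647 to 0.377). Atf3, a stress-induced factor of the ATF/CREB family, was the largest rise: it read -5.12 and -4.54 on control arrays, where 1 of the 2 was well above background, 3.37 and 3.60 on IRF8-labelled arrays and 0.61 and 0.94 on KLF4-labelled arrays. Control replicate 1 lay below the lowest level well above background on that array (-4.32). With this level in its place, Atf3 was at least 241-fold higher in IRF8-labelled cells (fitted log2 8.31 ± 0.23 (SE), limma adjusted p = 2.12e-05) and at least 37.0-fold higher in KLF4-labelled cells (fitted log2 5.61 ± 0.23 (SE), limma adjusted p = 0.000187). Nupr1, a small stress-induced chromatin protein, read 1.01 and 1.15 on control, 2.98 and 2.94 on IRF8-labelled and 3.20 and 3.11 on KLF4-labelled arrays, rises of 3.69-fold and 4.21-fold. Cebpb, a C/EBP factor that pairs with ATF4 and also acts in myeloid development, rose 1.66-fold and 1.70-fold. Atf3 in IRF8-labelled cells was 6.52-fold above KLF4-labelled cells, whereas Nupr1 and Cebpb differed between them by -0.19 and -0.04 (limma adjusted p = 0.151 and 0.799).

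Ppp1r15a encodes GADD34, which brings a phosphatase to eIF2 alpha and so ends the translation block. It read 3.21 and 3.47 on control arrays, 4.14 and 4.34 on IRF8-labelled arrays and 3.21 and 3.29 on KLF4-labelled arrays. Only the IRF8-labelled arrays stood apart, 1.86-fold above control (log2 0.90 ± 0.13 (SE), limma adjusted p = 0.00283, but 0.0647 with spike-in scaling) and 1.99-fold above KLF4-labelled cells. Of the eIF2 alpha kinases, Eif2ak2 (PKR, also an interferon-induced gene) rose by 0.49 log2 units and Eif2ak4 (GCN2) fell by 0.98 in IRF8-labelled cells, and Eif2ak1 (HRI) differed by -0.12 (limma adjusted p = 0.494). Eif2s1, which encodes eIF2 alpha itself, fell by 0.62. Of the other sensors, Ern1 (IRE1) fell by 0.52, Atf6 by 0.45 and its relative Atf6b by 1.04. Mbtps2, the site-2 protease that releases ATF6, fell by 0.56, and Atf5, an ATF4-related factor, by 0.95 (limma adjusted p of these 9 calls from 0.00107 to 0.0407). The calls for Atf6, Ern1, Eif2ak2 and Mbtps2 were lost when 1 array was left out, with limma adjusted p up to 0.176, 0.0624, 0.0655 and 0.0726, and with the mean of its probes Mbtps2 differed by 0.01. The other 3, Ppp1r15b, Cebpg and Mbtps1, differed by 0.23, -0.01 and -0.47 and did not pass, while with the block Ppp1r15b rose and Mbtps1 fell (limma adjusted p = 0.0137 and 0.00527).

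In KLF4-labelled cells 3 of the 16 sensors and regulators rose (Atf3, Nupr1 and Cebpb) and 1 fell, Atf5, by 0.48, with a median of -0.10. These are 18.8% and 6.25%, where 10.4% of all genes rose and 8.86% fell. The Atf5 call was lost whichever array was left out, and that of Cebpb without control replicate 1 (limma adjusted p = 0.0647) or KLF4 replicate 1 (0.0725). With spike-in scaling Atf5 and Cebpb (limma adjusted p = 0.182) were no longer called, while Atf3 and Nupr1 were. Under that scaling 7.04% of all genes were called higher and 0.944% lower. The 12 not called in the main fit lay between -0.46 and 0.19. With the block Eif2ak4, Atf6b and Eif2s1 among them fell, by 0.46, 0.32 and 0.27 (limma adjusted p = 0.00776, 0.0308 and 0.0288). In the direct comparison 4 were higher in IRF8-labelled cells (Atf3, Ppp1r15a, Eif2ak2 and Ppp1r15b) and 6 lower (Mbtps2, Atf6b, Ern1, Eif2ak4, Atf5 and Eif2s1), with a median of -0.22, and all but Atf3, Ppp1r15a and Eif2ak2 lost the call when some 1 array was left out (adjusted p up to 0.119). With the block Atf6 and Mbtps1 were lower as well (limma adjusted p = 0.00726 and 0.0349), where 31.8% of all genes were called higher and 35.5% lower. With spike-in scaling Atf3 alone was called, where 9.39% of all genes were higher and 14.4% lower.

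**Figure D4:**
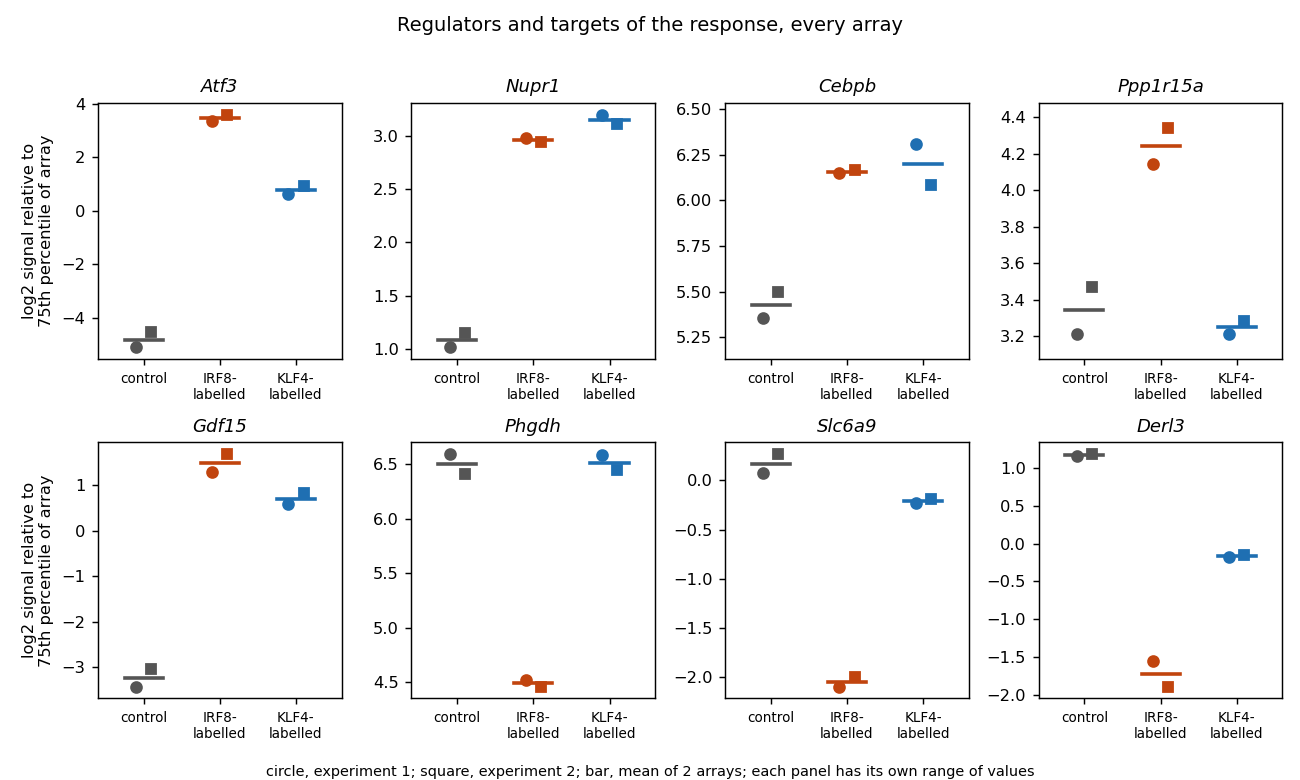
Log2 signal relative to each array's 75th percentile of 4 regulators (upper row) and 4 target genes (lower row), drawn as for the 10 genes, each panel with its own range. Atf3, Nupr1, Cebpb and Gdf15 are above control in both transduced groups, Ppp1r15a in the IRF8-labelled group, and Phgdh is lowest in the IRF8-labelled group.

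The list nearest to Asns and Chac1 holds 22 genes of amino acid synthesis and transport and other known ATF4 targets, 19 of them tested. In IRF8-labelled cells 13 fell and 3 rose against control, with a median of -1.05. Phgdh, the entry enzyme of serine synthesis, read 6.59 and 6.41 on control, 4.52 and 4.46 on IRF8-labelled and 6.58 and 6.44 on KLF4-labelled arrays, a fall of 4.03-fold in the IRF8-labelled cells (log2 -2.01 ± 0.11 (SE), limma adjusted p = 0.000120). Psph, the last enzyme of the same pathway, fell 4.37-fold and Slc6a9, a glycine transporter, 4.66-fold. Gdf15, a secreted stress cytokine, moved against them: it read -3.44 and -3.05 on control, 1.30 and 1.69 on IRF8-labelled and 0.59 and 0.84 on KLF4-labelled arrays, a rise of 26.7-fold and 15.5-fold. In KLF4-labelled cells 3 of the 19 rose (Gdf15, the cystine transporter Slc7a11 at 2.94-fold, and Cth, an enzyme of cysteine synthesis, at 1.78-fold) and 4 fell, the serine hydroxymethyltransferase Shmt2 among them, with a median of -0.26. In the direct comparison 13 were lower in IRF8-labelled cells and 2 higher (median -0.76), led by Cth (5.25-fold lower), Phgdh (4.06-fold), Slc6a9 (3.58-fold) and Stc2 (3.05-fold). Phgdh differed between the transduced groups while KLF4-labelled and control arrays overlapped. The shares of this list called lower were 68.4%, 21.1% and 68.4% in the 3 comparisons, against 35.7%, 8.86% and 26.8% of all genes. Those called higher were 15.8%, 15.8% and 10.5%, against 25.8%, 10.4% and 23.7% of all genes.

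All 20 aminoacyl-tRNA synthetases on their list, the enzymes that charge tRNAs and many of which ATF4 is known to induce, were tested. In IRF8-labelled cells 17 fell and 1 rose (median -0.80), with Dars 3.17-fold, Vars 2.93-fold, Mars1 2.74-fold and Tars 2.42-fold below control. In KLF4-labelled cells 4 fell (Lars, Vars, Mars1 and Hars, by 0.38 to 0.47) and 0 rose (median -0.30). In the direct comparison 12 were lower in IRF8-labelled cells and 1 higher (median -0.51). Of all genes, 35.7%, 8.86% and 26.8% were called lower in the 3 comparisons, and 25.8%, 10.4% and 23.7% higher.

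Of 20 ER chaperones and folding enzymes, all tested, 15 fell and 2 rose in IRF8-labelled cells (median -0.61, against -0.13 over all genes). This is the direction of Hspa5 and Hsp90b1. Ero1a, which oxidises protein disulphide isomerases, fell 2.81-fold, Hyou1, an ER Hsp70-like exchange factor, 2.71-fold, the secreted ER factor Manf 2.17-fold and the co-chaperone Dnajc3 2.06-fold. In KLF4-labelled cells 6 fell and 0 rose (median -0.28), among them Sdf2l1, Pdia3, Creld2 and Pdia6, by 0.43 to 0.49. In the direct comparison 8 were lower in IRF8-labelled cells and 1 higher (median -0.30), Ero1a and Hyou1 with the largest differences (2.70-fold and 2.26-fold). Beside these counts, 35.7%, 8.86% and 26.8% of all genes were called lower in the 3 comparisons, and 25.8%, 10.4% and 23.7% higher.

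Of 22 genes for moving proteins into and out of the ER, all tested, 15 fell and 1 rose in IRF8-labelled cells (median -0.58), led by Kdelr2, a receptor that returns ER residents, at 2.77-fold (log2 -1.47 ± 0.08 (SE), limma adjusted p = 0.000134), and by the translocon subunits Ssr2 and Ssr1 and the coat protein Sec24d. In KLF4-labelled cells 6 fell and 0 rose (median -0.30), with Kdelr2 at 1.46-fold, and in the direct comparison 8 were lower and 1 higher (median -0.28), led by Kdelr2 at 1.90-fold. Transport genes called lower made up 68.2%, 27.3% and 36.4% of the 22 in the 3 comparisons, against 35.7%, 8.86% and 26.8% of all genes. ER-associated degradation is the process that Herpud1 serves. Of 17 of its genes tested from a list of 18, 4 fell (23.5%) and 2 rose (11.8%) in IRF8-labelled cells (median -0.12), smaller shares than those of all genes. Derl3, a channel subunit of that pathway, read 1.16 and 1.18 on control, -1.56 and -1.89 on IRF8-labelled and -0.17 and -0.15 on KLF4-labelled arrays, falls of 7.44-fold and 2.52-fold. Its relative Derl2 rose by 0.53 in IRF8-labelled cells, while Erlec1 and Edem2 fell by 0.93 and 0.64. In KLF4-labelled cells 2 of these genes fell, Derl3 and Edem2. In the direct comparison 2 were higher (Derl2 among them, lost when some 1 array was left out) and 1 lower (Derl3), with a median of 0.10. Those called lower were 11.8% and 5.88% in these 2 comparisons, against 8.86% and 26.8% of all genes. Those called higher were 0.0% and 11.8%, against 10.4% and 23.7% of all genes.

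The cytosolic heat shock genes, which answer to HSF1 and not to the ER sensors, were read for comparison, 10 tested of 13. In IRF8-labelled cells 5 fell, among them Hsp90aa1 (2.20-fold), Stip1 (1.95-fold) and Hsf1 (1.68-fold, lost when some 1 array was left out, adjusted p up to 0.160), and 1 rose, the co-chaperone Bag3 (1.71-fold), with a median of -0.38. In KLF4-labelled cells limma called 0 of the 10 in either direction (1 lower with an unadjusted p below 0.05, and median -0.21), and with the block 5 fell, where 34.4% of all genes did. In the direct comparison 3 were lower, led by Hsp90aa1 (1.75-fold), and 1 higher, Bag3 (1.55-fold). In the main fit 35.7%, 8.86% and 26.8% of all genes were called lower in the 3 comparisons, and 25.8%, 10.4% and 23.7% higher. The 3 of 10 lower in the direct comparison were thus near the share of all genes.

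**Figure D5:**
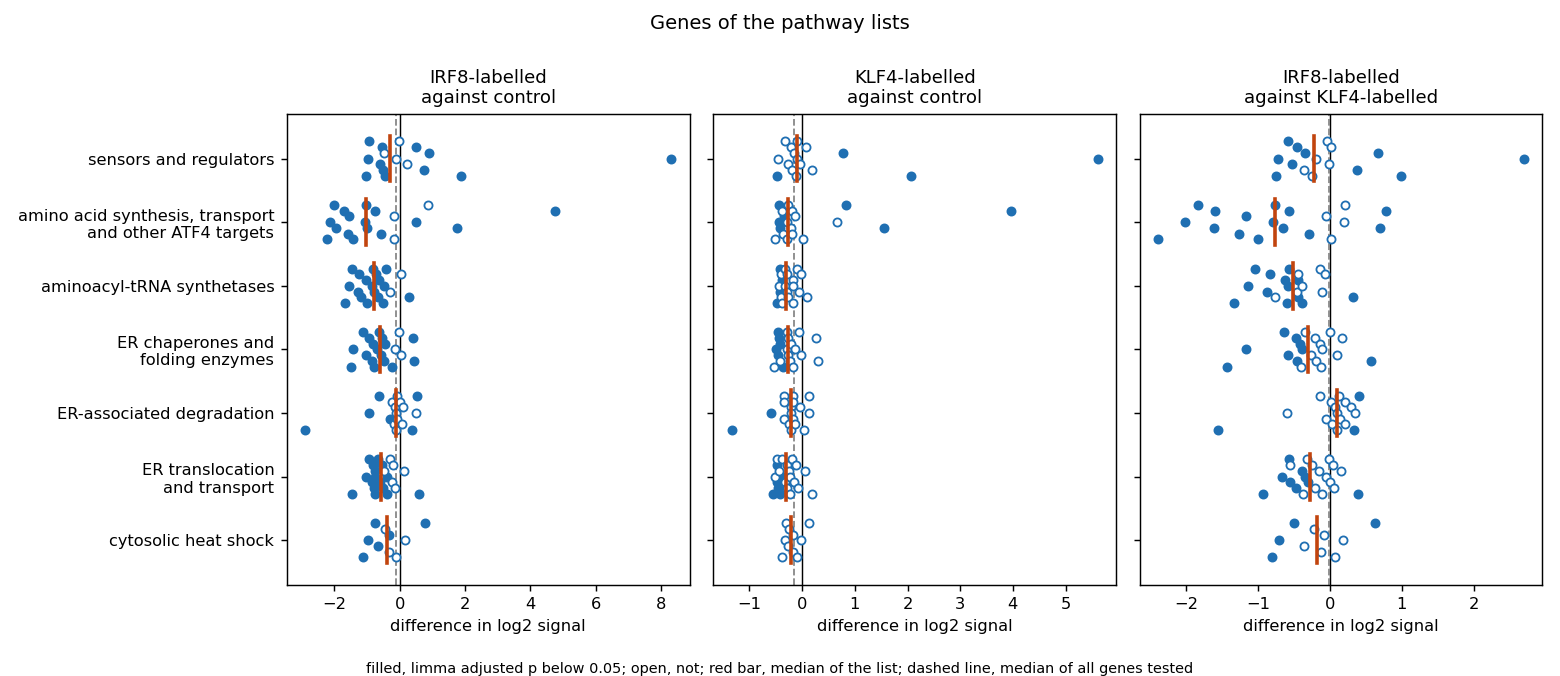
Difference in log2 signal (horizontal axis, with a different range in each panel) of every tested gene of the 7 pathway lists in the 3 comparisons, filled where the limma adjusted p is below 0.05, with red bars for list medians and dashed lines for the median of all genes. Medians of amino acid genes, synthetases, ER chaperones, ER transport and cytosolic heat shock lie left of the dashed line in each panel. That of heat shock is close to the line in KLF4-labelled against control (-0.21 against -0.16). Medians of ER-associated degradation lie close to the line in the comparisons with control and to its right in the direct comparison (0.10 against -0.01).

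Of the 36 list genes that the rule for naming picked as called in IRF8-labelled against control, 31 kept the call whichever array was left out, as did 20 of 33 in the direct comparison. In KLF4-labelled against control it was 5 of 22 (Atf3, Nupr1, Gdf15, Slc7a11 and Derl3). Counts in KLF4-labelled cells also moved with scaling and the block: of the ER chaperones 0 were called with median or spike-in scaling against 13 lower and 2 higher with the block, of the synthetases 0 against 14 lower, and of the amino acid genes 3 higher and 0 lower with median scaling against 4 and 11 with the block, which called 16.5% of all genes higher and 34.4% lower. With spike-in scaling the calls in IRF8-labelled cells were 11 lower and 2 higher for the amino acid genes, 10 lower for the synthetases, 7 lower for the chaperones, 4 lower for ER transport, 2 lower for ER-associated degradation (Derl2 and Edem2 among those no longer called) and 2 lower for the heat shock genes (Bag3 and Hsf1 among those no longer called), where 16.2% of all genes were higher and 20.6% lower.

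The genes whose signals ran most like those of a member over the 6 arrays were ranked by the root mean square difference of log2 signals, each centred on its own mean. Nearest to Atf4 were Lman2 (0.027), Chchd1 (0.031) and Srek1ip1 (0.038). Lman2 encodes a cargo receptor of the early secretory pathway. Nearest to Ddit3 were Hmga2-ps1 (0.073), 2310040G24Rik (0.085) and Rnf144b (0.090), and to Asns Prps2 (0.047), Ect2 (0.047) and H3c1 (0.049). Those nearest to Xbp1 were Ube2d3 (0.019), Psmd3 (0.021) and Hoxa11os (0.021), and to Hspa5 Ndufs6 (0.037), Cuedc2 (0.038) and Chchd1 (0.040). Chchd1 stands on the lists of both Atf4 and Hspa5. The nearest gene to Ddit3 lay farther from it than the nearest gene to any of the other 4.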

How the data were processed

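Total RNA labelled with Cy3 was hybridised to 6 single-colour Agilent mouse arrays of 62976 spots. Per the file headers, the deposited values are intensity, the spot brightness after background subtraction and detrending by Agilent Feature Extraction 10.7.3.1, not normalized between arrays. The deposited value table holds the same intensity times a factor per array. Its 75th percentile was 506 on all 6 arrays, so that table is scaled between arrays. Control spots and spots with outlier flags were left out, probes were named through RefSeq accessions (annotation GRCm38.p6; 26762 of 28390 probes matched), and a gene took its probe with the highest mean signal. The measure computed here is log2 of the deposited intensity relative to the array's 75th percentile. The test took in the 13247 genes that some group had well above background on its 2 arrays.

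One limma fit (version 3.58.1, R 4.3.3) of the 3 groups on all 6 arrays, with 3 residual degrees of freedom and 2-sided tests, was adjusted by Benjamini-Hochberg over these genes at 0.05. Log2 differences carry their SE. An exact permutation test of 2 against 2 arrays cannot fall below p = 0.333. Beyond the design's words on independent experiments nothing states separate cultures, so p-values measure the spread between these arrays. Replicate number, experiment and slide coincide. Deviations of same-numbered arrays from their group means correlated at 0.282, 0.321 and 0.391 across genes in the 3 pairs of groups, so the numbers pair the samples. For the 10 genes and the sensors and regulators, values with the replicate number as a block are given where they change a call. For the other lists, block counts are given only for some lists in KLF4-labelled against control. On simulated data with 13247 genes, 200 of them changed (10 draws), IRF8-labelled against control had 53.9% of changes of log2 1 and 84.5% of log2 2 recovered, and KLF4-labelled against control 54.4% and 85.4%, with 4.44% and 5.26% of calls false. The simulation drew arrays independently and changed few genes, while the real fits of these comparisons called 61.5% and 19.2% of genes. Its percentages therefore do not give the recovery or the false share in these data.

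Other analyses were quantile, median and spike-in scaling (8 spike-in probes), normexp (offset 50, on the median signal, since the mean signal was not among the columns used), the value table, other filters or a floor for dim probes, averaging the probes of a gene or taking each alone, eBayes with trend and robust options, a fit of the 2 groups alone, the block and leaving out each array. The members and lists were chosen with earlier results of these data known. Named are all 10 members, all sensors and regulators, up to 4 genes of each other list per comparison with the largest change past the threshold, Irf8, Klf4, and the 3 genes most like each of 5 members; the genes named for their signals on single arrays were taken from these, with Hspa1a and Hspb1 chosen after their values were seen. An item that this rule would name is not reported here and stays in the counts. Motifs were searched in RefSeq promoters (GRCm38.p6) on both strands.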

Additional observations from a re-analysis of the deposited data

How the results depend on the processing

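With 2 arrays a group, precision is limited by their number. Of 570 recalculated differences of the 10 genes, 492 kept direction and side of the threshold, 65 were no longer past it and 10 newly passed. In IRF8-labelled against control 8 of the 10 genes and 8147 of all genes were called. Spike-in scaling gave 3 and 4883. In KLF4-labelled against control 5 of the 10 and 2547 of all genes were called (1373 higher, 1174 lower). Median scaling gave 0 and 1499 (1316 higher, 183 lower), spike-in scaling 0 and 1057 (932, 125), normexp 0 and 1030 (779, 251), no filter on dim probes 0 and 974 (825, 149), only the 2 groups compared 1 and 1499 (1109, 390), quantile normalization 1563 higher and 768 lower, and the replicate block, which pairs the arrays by experiment, 9 and 6744 (2187, 4557). Leaving out 1 array gave 0 to 1 of the 10 and 883 to 1499 of all genes. In IRF8-labelled against KLF4-labelled cells 6695 genes were called, and 3157 with spike-in scaling. The causes were not tested, except that leaving out arrays or groups lowers the residual degrees of freedom by construction. Median scaling shifted the median of all genes by 0.13 and -0.16 in KLF4-labelled against control and IRF8-labelled against KLF4-labelled cells, and spike-in scaling by 0.09 and -0.16. Relative to that median, 9 of the 10 genes lay below it in KLF4-labelled against control in the main analysis, and 8 with quantile normalization. Median and spike-in scaling shift all genes of an array alike and so cannot change the count of the main analysis. Trib3, never called, changed sign: KLF4-labelled against control it was 0.0332 with median scaling and -0.22 to 0.0357 with 1 array left out, and IRF8-labelled against KLF4-labelled -0.20 to 0.0581 with 1 array left out. Mbtps2 in IRF8-labelled against control was 0.0054 with the mean of its probes. The block changed no call of the 10 genes other than those given beside them.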

Other observations

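Hspa1a, which encodes the inducible cytosolic Hsp70, and Hspb1, a small heat shock protein, were not tested because no group had them well above background on its 2 arrays. Each was well above background on 1 array, IRF8-labelled replicate 2. Hspa1a read -1.47 there and -7.15 to -5.92 on the other 5 arrays, and Hspb1 read -4.86 there and -7.70 to -6.07 on the others. The other array of the IRF8-labelled group read -6.87 for Hspa1a and -6.07 for Hspb1, so this was not seen in both experiments. On that array the ER chaperones Hspa5 and Hsp90b1 read 7.24 and 6.59, beside 7.23 and 6.64 on replicate 1 of the same group. Both genes were singled out after their values had been seen.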
